A study of Rattus norvegicus with 6 samples.

Results

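Lubricin, hyaluronan and synovial lining genes were followed in synovial fibroblast-like cells of arthritic rats cultured in 3 sera. The 10 genes were Prg4, Has1, Has2, Has3, Cd44, Hyal1, Hyal2, Ugdh, Cd55 and Tnfaip6. They were chosen by name for these roles, with earlier results of these data known. Of these, 9 had a row among the 17221 transcript rows of the deposited table, each with a single row. Tnfaip6, which encodes the hyaluronan-binding protein TSG-6, was not analysed here. A filter on low values left 8 of the 9 for testing among 9820 tested rows: Has3 was not tested, and Has1 passed only through its level in MS+.

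The cells came from the synovium of 2 female Wistar rats with collagen-induced arthritis and were grown as adherent cultures. The cells of each rat were split over 3 media, which gives 2 libraries per medium: with bovine fetal serum (FBS), with serum from rats that had no needle stimulation (MS−), and with serum drawn at day 18 of needle stimulation (MS+). The labels call these sera AP- and AP+, for acupuncture. For MS−, 1 label field calls the animals healthy while the title and disease field give arthritis, and how many animals gave each serum is not stated. The replicate is therefore the rat whose cells were cultured, and p-values of the main fit measure the spread between the cells of 2 rats. Where the rat was added to the fit as a block, they measure how far the serum differences varied between the 2 rats. Neither measures the spread between serum donors. FBS is bovine, so the species of the serum and its other differences from MS− and MS+ cannot be told apart. The paper says that MS− serum was taken before therapy began. Stimulation and the time of the draw therefore cannot be told apart between MS+ and MS−. Both comparisons against FBS share the same 2 FBS libraries, and the labels give no ages.

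Hyaluronan is a long unbranched sugar polymer that gives joint fluid its viscosity. It is made at the cell membrane by the synthases HAS1, HAS2 and HAS3 from UDP-glucuronate, which UGDH supplies, and UDP-N-acetylglucosamine. The hyaluronidases HYAL2, on the cell surface, and HYAL1, in lysosomes, cut it to smaller pieces, and CD44 is its main cell surface receptor. PRG4, or lubricin, is the secreted glycoprotein that coats cartilage and lets it slide. CD55 protects cells from complement by speeding the decay of the C3 convertases, and in the joint it marks lining fibroblasts.

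Levels are in CPM, read counts scaled by the authors to the size of each library with the TMM method. The table gives no transcript lengths, so levels were compared between libraries and not between genes. The 6 libraries held 5463316 to 5991889 reads, and 3 reads, taken as the floor of detection, were worth 0.491 to 0.551 CPM. The fibroblast label was borne out by Col1a1, Col1a2, Fn1 and Vim, and 8 of 10 fibroblast markers reached 1 CPM in a library, while Dcn and Lum stayed under it. The lining label was borne out only in part: of 12 other lining genes with a row, 7 reached 1 CPM in a library, Cdh11 and Pdpn among them, while Vcam1 and Clic5 stayed under the 1 CPM filter in every library, and Prg4 had 7 to 20 reads. Sublining genes were detected too, with 7 of 9 at 1 CPM in a library. Thy1 read 1089 to 1551 CPM and Pdgfrb 2137 to 2518 CPM, while Cd34 and Dpp4 had no read. Of 12 macrophage markers with a row, 9 had no read in any library, Ptprc, Itgam and Cd163 among them. Their summed level was 13.8 to 14.6 CPM in FBS, 17.2 to 20.5 in MS− and 16.3 to 17.7 in MS+, most of it from Cd14. Of 8 lymphocyte and blood cell markers with a row, 6 had no read, and none reached 1 CPM. Ptprc has 5 transcript rows, and Lyz2 and the blood cell marker Hbb overlap other genes on the same strand. Reads shared by overlapping transcripts were dropped, so the lack of reads for these genes can come from the counting. Endothelial markers summed to 0.181 to 1.47 CPM and chondrocyte markers to 2.53 to 4.64 CPM. The chondrocyte sum leaves out Acan, the cartilage proteoglycan aggrecan, which was listed with the matrix partners and read 1452 to 3012 CPM. Skeletal muscle markers summed to 773 to 1203 CPM, most of it from Acta1.

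The genes called in the comparisons below without any block were Cd55, Hyal1 and Hyal2, and their promoters are shown for that reason. RefSeq sequences on GRCr8, from 250 bases before to 50 after the transcript start, were found for 8 of the 10 genes; Has2 and Has3 had none. Capitals mark the GC box GGGCGG on either strand and, in Cd55, the letters TGACG, the core of a cyclic AMP response element, on either strand.
Cd55 (chr13:44438052-44438351, minus strand): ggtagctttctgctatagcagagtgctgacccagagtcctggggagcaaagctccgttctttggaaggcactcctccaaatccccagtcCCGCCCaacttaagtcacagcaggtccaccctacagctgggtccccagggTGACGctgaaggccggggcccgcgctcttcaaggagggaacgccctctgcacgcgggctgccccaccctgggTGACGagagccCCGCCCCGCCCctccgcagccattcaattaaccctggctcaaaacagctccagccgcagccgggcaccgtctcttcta
Hyal1 (chr8:117129061-117129360, plus strand): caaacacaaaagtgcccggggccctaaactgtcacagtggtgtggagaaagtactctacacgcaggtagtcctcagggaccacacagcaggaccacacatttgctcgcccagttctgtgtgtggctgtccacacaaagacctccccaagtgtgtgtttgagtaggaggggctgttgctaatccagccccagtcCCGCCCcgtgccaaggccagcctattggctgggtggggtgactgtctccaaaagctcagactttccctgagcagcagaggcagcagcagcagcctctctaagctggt
Hyal2 (chr8:117121552-117121851, plus strand): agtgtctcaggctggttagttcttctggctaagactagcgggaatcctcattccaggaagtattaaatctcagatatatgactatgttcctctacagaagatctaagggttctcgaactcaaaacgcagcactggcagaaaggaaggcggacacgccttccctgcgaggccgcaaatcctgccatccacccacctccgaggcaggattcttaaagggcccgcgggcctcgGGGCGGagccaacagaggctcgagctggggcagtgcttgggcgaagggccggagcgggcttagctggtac
The GC box occurred 3 times in the Cd55 promoter, with 2 of the matches overlapping, and 1 time each in those of Hyal1 and Hyal2. It also occurred in 34.9% of all 27457 promoters of this length. TGACG occurred 2 times in the Cd55 promoter and in 22% of all promoters. The full element TGACGTCA was in the Has1 promoter and in 1.91% of all promoters. GC content was 63.7% for Cd55, 57.3% for Hyal1 and 56.7% for Hyal2, against a median of 52.3% over all promoters. The letters CACGTG (E-box), GTAAACA (FOXO) and TGANTCA (AP-1), searched on both strands, were in none of the 3 promoters printed, and occurred in 6.65%, 3.76% and 7.33% of all promoters. The same held for the glucocorticoid receptor letters AGAACA (20.1% of all promoters), the nuclear receptor letters AGGTCA (15.7%) and the TATA box letters TATAAA (14.3%). A match is a description of the letters in this window, not a bound site.

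Cd55 was higher in both rat sera than in FBS. Its row (NM_022269, chromosome 13, 43322246 to 43348334, minus strand, rn4) read 13.9 and 16.4 CPM in FBS, 63.5 and 54.8 CPM in MS−, and 79.1 and 77.6 CPM in MS+, rat 1 first, from 85 to 439 reads per library. The 3 groups did not overlap, and in both rats the order was FBS, then MS−, then MS+. Group means were 15.2 ± 1.77 (FBS), 59.1 ± 6.16 (MS−) and 78.4 ± 1.03 (MS+) CPM (SD, n = 2). Cd55 rose by 2.30 on the log2(CPM + 1) scale in MS+ over FBS (SE 0.13, 95% interval 1.99 to 2.61, limma adjusted p = 0.000864), which is 5.17-fold in mean CPM, 5.68-fold in rat 1 and 4.73-fold in rat 2. In MS− over FBS it rose by 1.90 (SE 0.13, 95% interval 1.58 to 2.21, limma adjusted p = 0.00185), or 3.90-fold in mean CPM. Both calls held in every alternative tried, with adjusted p-values of at most 0.0269 and 0.0265. Between MS+ and MS−, the last step of that order, the difference was 0.40 (95% interval 0.091 to 0.72), with a limma adjusted p of 0.242, of 0.0545 with the rat as a block and of 0.0224 in edgeR with the block. Over all alternatives this adjusted p ran from 0.0224 to 0.596, so the 2 rat sera were not separated for Cd55 except by edgeR with the block. A change in the number of cells that express a gene and a change in its RNA per cell cannot be told apart in these bulk libraries. The macrophage sum given above was also higher in both rat sera than in FBS, but this came mainly from Cd14. Mean Cd14 was 12.6 CPM with FBS, against 17.8 CPM for MS− and 15.4 CPM for MS+. It was not called in any comparison by limma, with or without the block. Csf1r, at 2 to 4 reads per library, had a lower mean in both rat sera. Mean Cd68 was below FBS for MS− and above it for MS+, and the other 9 markers had no read. Whether macrophages had a part in the Cd55 difference was not tested.

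**Figure D1:**
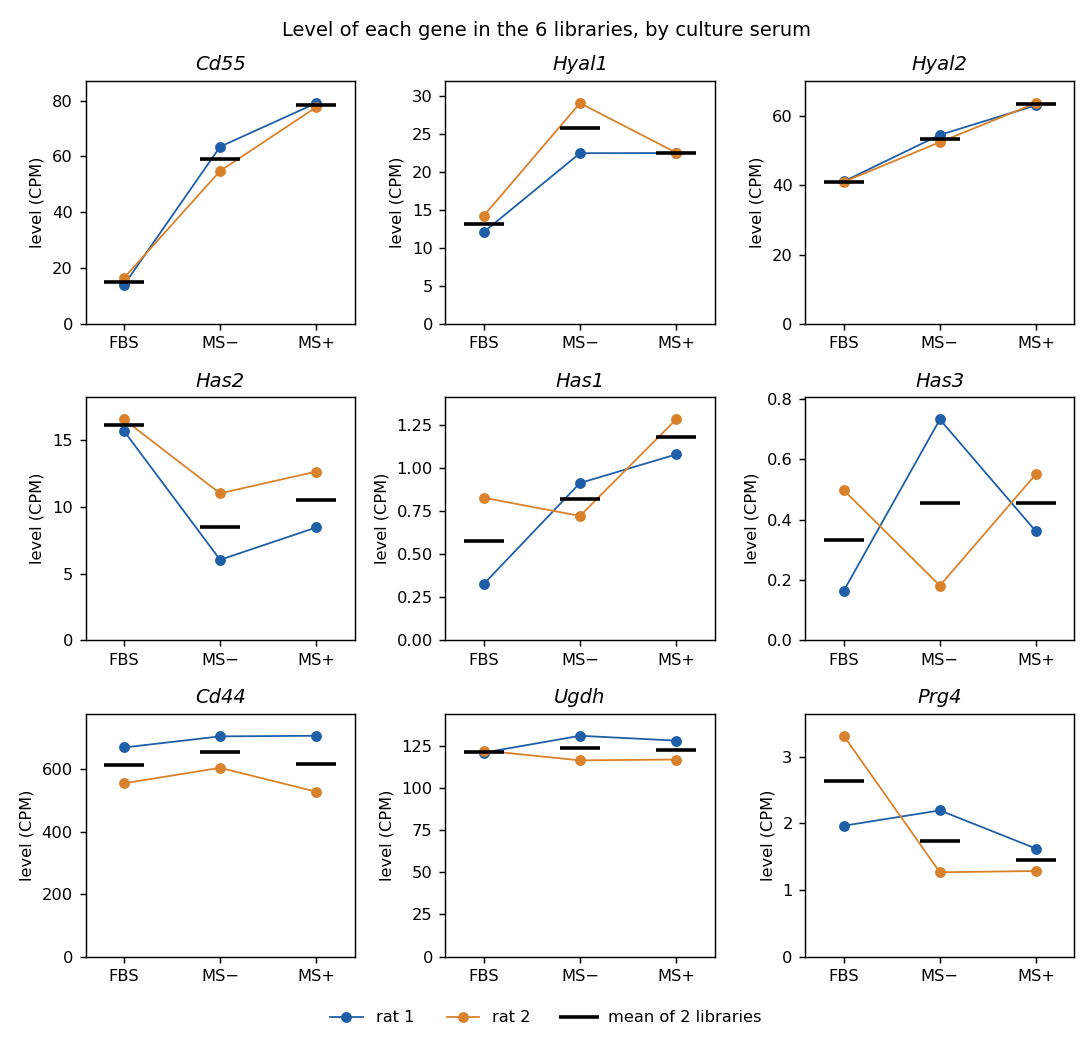
Level of each of the 9 genes (CPM, vertical axes from 0) in FBS, MS− and MS+ (horizontal axis), with 1 point per library, a line per rat and a bar at the mean of the 2 libraries. Cd55 climbed from 13.9 and 16.4 CPM in FBS to 79.1 and 77.6 CPM in MS+ in both rats, Has2 read lower in MS− and MS+ than in FBS in each rat, and Has1, Has3 and Prg4 rest on 1 to 20 reads per library.

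The hyaluronidases Hyal1 and Hyal2 were both higher in MS+ than in FBS, by smaller amounts. Hyal1 (NM_207616, chromosome 8, 112824562 to 112826875, plus strand) read 12.1 and 14.3 CPM in FBS, 22.5 and 29.1 CPM in MS−, and 22.5 and 22.6 CPM in MS+, with 74 to 161 reads per library. Every library in rat serum was above both FBS libraries, and the MS− and MS+ values touched at 22.5 CPM. Hyal1 rose by 0.74 in MS+ over FBS (SE 0.17, 95% interval 0.33 to 1.14, limma adjusted p = 0.0442; 0.00213 with the rat as a block) and by 0.91 in MS− over FBS (SE 0.17, 95% interval 0.50 to 1.32, limma adjusted p = 0.0342; 0.000541 with the block). Both unblocked calls were lost without any single library of the 6, with adjusted p-values of 0.0537 to 0.183 for MS+ and 0.0753 to 0.184 for MS−. With no filter on low values both were also lost, as was the MS+ call with library totals, in limma-voom and in DESeq2. Between MS+ and MS− the difference was -0.18 (95% interval -0.58 to 0.23, limma adjusted p = 0.699). Group means were 13.2 ± 1.52 (FBS), 25.8 ± 4.67 (MS−) and 22.5 ± 0.0378 (MS+) CPM (SD, n = 2).

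Hyal2 (NM_172040, chromosome 8, 112817001 to 112820693, plus strand) ends 3868 bases before Hyal1 starts on the same strand, and Hyal3 follows 1274 bases after Hyal1. It read 41.1 and 41.0 CPM in FBS, 54.5 and 52.4 CPM in MS−, and 63.1 and 63.7 CPM in MS+, with 247 to 350 reads per library. The 3 groups did not overlap, in the order FBS, MS−, MS+, and the 2 rats were close within each serum. Hyal2 rose by 0.62 in MS+ over FBS (SE 0.10, 95% interval 0.38 to 0.85, limma adjusted p = 0.0154; 0.000475 with the rat as a block). That call was lost without any 1 of the FBS or MS+ libraries, with adjusted p-values of 0.0649 to 0.0935. In MS− over FBS the difference was 0.37 (95% interval 0.14 to 0.61), called with the rat as a block (adjusted p = 0.0203) and not without it in limma (adjusted p = 0.0883). Between MS+ and MS− it was 0.24 (95% interval 0.0087 to 0.47, limma adjusted p = 0.325; 0.172 with the block). Group means were 41.0 ± 0.0957 (FBS), 53.5 ± 1.48 (MS−) and 63.4 ± 0.443 (MS+) CPM (SD, n = 2).

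Of the 3 hyaluronan synthases, only Has2 had enough reads to compare sera, with 33 to 100 reads per library. Has2 (NM_013153, chromosome 7, 93230135 to 93256139, minus strand) read 15.7 and 16.6 CPM in FBS, 6.04 and 11.0 CPM in MS−, and 8.47 and 12.7 CPM in MS+. Both rats had their highest level in FBS, and rat 2 was above rat 1 in every serum. Means were 16.1 ± 0.612 (FBS), 8.53 ± 3.53 (MS−) and 10.6 ± 2.97 (MS+) CPM (SD, n = 2). In MS− against FBS the log2 difference was -0.90 (SE 0.30, 95% interval -1.60 to -0.19), with a limma adjusted p of 0.150, and of 0.00453 with the rat as a block. In MS+ against FBS it was -0.59 (SE 0.30, 95% interval -1.30 to 0.11), with a limma adjusted p of 0.249, and of 0.0371 with the block. The fall therefore passed the test only where the cells of each rat were compared with themselves: the log2 difference of MS− from FBS was -1.25 in rat 1 and -0.55 in rat 2, and that of MS+ from FBS -0.82 and -0.36. MS+ and MS− were 0.31 apart (95% interval -0.40 to 1.01, limma adjusted p = 0.697; 0.373 with the block), and their libraries overlapped.

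Has1 (NM_172323, chromosome 1, 56503365 to 56516133, minus strand) had 2 and 5 reads in FBS, 5 and 4 in MS−, and 6 and 7 in MS+. Summed over the 2 libraries, this is 0.577 CPM in FBS (exact Poisson 95% interval 0.232 to 1.19), 0.818 in MS− (0.374 to 1.55) and 1.18 in MS+ (0.629 to 2.02), where intervals cover counting error only. These intervals overlap, and limma adjusted p-values were 0.334 for MS+ against FBS, 0.722 for MS− against FBS and 0.739 for MS+ against MS−. Has3 (NM_172319, chromosome 19, 36718156 to 36727586, plus strand) had 1 and 3 reads in FBS, 4 and 1 in MS−, and 2 and 3 in MS+. No difference in Has1 or Has3 was detectable at this depth.

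Ugdh, the enzyme that makes the UDP-glucuronate precursor (NM_031325, chromosome 14, 45542781 to 45570961, plus strand), read 121 and 122 CPM in FBS, 131 and 116 CPM in MS−, and 128 and 117 CPM in MS+. Both MS− and MS+ had 1 library above and 1 below the FBS pair. Its log2 difference was 0.0091 in MS+ against FBS (95% interval -0.23 to 0.25, limma adjusted p = 0.965) and 0.022 in MS− against FBS (95% interval -0.22 to 0.26, limma adjusted p = 0.931). MS+ against MS− gave -0.013 (95% interval -0.25 to 0.23). All 3 intervals reached both sides of 0.

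Cd44, the hyaluronan receptor (NM_012924, chromosome 3, 88022962 to 88110352, minus strand), read 669.5 and 555 CPM in FBS, 705 and 604 CPM in MS−, and 707 and 528 CPM in MS+. Rat 1 was above rat 2 in every serum, and the 3 groups overlapped. Its log2 difference was 0.0034 in MS+ against FBS (95% interval -0.40 to 0.41, limma adjusted p = 0.992) and 0.10 in MS− against FBS (95% interval -0.31 to 0.50, limma adjusted p = 0.796). MS+ against MS− gave -0.10 (95% interval -0.50 to 0.31, limma adjusted p = 0.855).

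Prg4, the lubricin gene (NM_001105962, chromosome 13, 64753316 to 64769533, minus strand), had few reads: 12 and 20 in FBS, 12 and 7 in MS−, and 9 and 7 in MS+. Its span overlaps Tpr on the other strand, and strand use was not stated, so its reads are uncertain. Summed over both libraries it measured 2.64 CPM in FBS (exact Poisson 95% interval 1.80 to 3.72), 1.73 in MS− (1.04 to 2.70) and 1.45 in MS+ (0.831 to 2.36). The log2 difference was -0.55 in MS+ against FBS (95% interval -1.28 to 0.19, limma adjusted p = 0.302), -0.41 in MS− against FBS (limma adjusted p = 0.503) and -0.14 in MS+ against MS− (limma adjusted p = 0.893). FBS and MS− overlapped, while both MS+ values were below both FBS values, and no difference passed the test at this depth.

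Because the genes were chosen with earlier results of these data known, the counts and shares that follow are descriptions. Counted over the 8 genes tested, 3 passed a limma adjusted p under 0.05 in MS+ against FBS, all higher. Of all 9820 tested rows, 9.61% passed there and 4.95% passed as higher. In MS− against FBS 2 of 8 passed, both higher, against 4.81% of all rows and 2.09% as higher. In MS+ against MS− none of the 8 passed in limma, against 0.0204% of all rows; 2, Cd55 and Hyal2, had an unadjusted p under 0.05, where 14.7% of all rows did. Limma-voom, edgeR and DESeq2 without the block also called none of the 8 in MS+ against MS−, where they called 0.0407%, 0.0305% and 1.25% of all rows. DESeq2 gave no adjusted p for Prg4 and Has1 there. The blocked edgeR fit called Cd55 and 10.3% of all rows. With the rat as a block in limma, 4 of 8 passed in MS+ against FBS, 3 higher and 1 lower (28.2% of all rows, 14.4% higher and 13.9% lower). Also with the block, 4 of 8 passed in MS− against FBS, 3 higher and 1 lower (20.5% of all rows, 10.8% higher and 9.63% lower). In MS+ against MS− 0 of 8 passed with the block (10.1% of all rows). Under the study rule (unadjusted p under 0.05, at least 2-fold, mean at least 1 CPM) Cd55 was the only one called in either comparison with FBS, where 5.3% of all rows passed for MS+ and 3.62% for MS−; between MS+ and MS− it called none of the 8 and 1.24% of all rows. Median log2 differences over the 8 genes were 0.25 in MS+ against FBS, 0.16 in MS− against FBS and 0.11 in MS+ against MS−, beside 0.00078, 0.014 and -0.0058 over all tested rows.

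**Figure D2:**
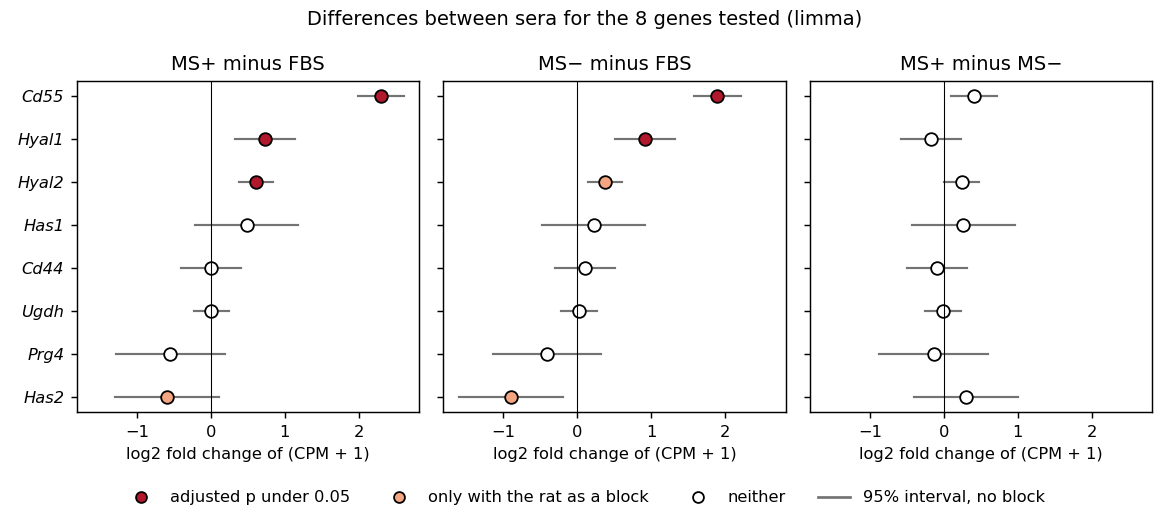
Log2 fold change of (CPM + 1) for the 8 genes tested (rows), in MS+ minus FBS, MS− minus FBS and MS+ minus MS− (panels), with 95% limma intervals without the rat block. Dark points passed an adjusted p under 0.05 without the block and light orange points only with it; Cd55 stood at 2.30 and 1.90 against FBS, and no gene was called between MS+ and MS−.

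Other genes of the pathways were taken from 7 lists of 79 genes, of which 70 had a row and 42 were tested. Without the block, limma called 0 of the 42 higher and 4 lower in MS+ than in FBS, where 9.61% of all rows were called, and 0 higher and 4 lower in MS− than in FBS, where 4.81% were. With the rat as a block these counts were 9 higher and 8 lower for MS+ (14.4% and 13.9% of all rows) and 7 higher and 9 lower for MS− (10.8% and 9.63% of all rows). Between MS+ and MS− they were 4 higher and 1 lower with the block (10.1% of all rows were called) and 0 without it (0.0204%). For the named genes that follow, a call that was made only with the rat as a block is given as made with the block.

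In sugar precursor supply, 12 genes were tested, and none passed the adjusted p without the block. Without it, 9.61% of all rows passed in MS+ against FBS, 4.81% in MS− against FBS and 0.0204% in MS+ against MS−. When the block was used, 28.2%, 20.5% and 10.1% of all rows did. With the block alone, Slc35d1, a UDP-sugar transporter of the endoplasmic reticulum, was higher in MS− than in FBS (0.70, limma adjusted p = 0.00541), as, with the block, was Gfpt1, which opens the hexosamine pathway (0.39, adjusted p = 0.0498). Hk2, a hexokinase, was lower in MS− with the block (-0.52, adjusted p = 0.0201). In MS+ against FBS, Pgm1, a phosphoglucomutase, was higher with the block (0.28, limma adjusted p = 0.0458). Uxs1, which turns UDP-glucuronate into UDP-xylose, was lower with the block (-0.34, limma adjusted p = 0.0175). The other tested genes of this list did not pass in any comparison with or without the block, and its median log2 difference was 0.042 in MS+ against FBS, -0.0066 in MS− against FBS and -0.047 in MS+ against MS−.

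Among 5 tested genes of hyaluronan breakdown, Cemip2, a cell surface protein of hyaluronan turnover listed as Tmem2, read 10.3 and 11.4 CPM in FBS, 6.95 and 4.70 CPM in MS−, and 3.96 and 4.59 CPM in MS+. It fell below FBS in MS+ (log2 difference -1.17, limma adjusted p = 0.0272; lost without any 1 FBS or MS+ library), and with the block in MS− (-0.82, adjusted p = 0.0184). Hyal3, the neighbour of Hyal1, read 11.8 and 11.6 CPM in FBS, 18.8 and 16.1 CPM in MS−, and 16.0 and 15.6 CPM in MS+ and was higher in MS− than in FBS with the block (0.54, limma adjusted p = 0.0310). In MS+ it was 0.41 above FBS, with an adjusted p of 0.0791 with the block. Hexa, a lysosomal hexosaminidase subunit, was higher with the block in MS+ (0.27, limma adjusted p = 0.0302) and in MS− (0.42, adjusted p = 0.00260).

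Among 4 tested hyaluronan receptors, Hmmr, which binds hyaluronan and is also known as a mitotic spindle protein of dividing cells, read 18.7 and 20.6 CPM in FBS, 2.20 and 3.43 CPM in MS−, and 8.65 and 9.18 CPM in MS+. No 2 groups overlapped, with MS− lowest and FBS highest. Hmmr fell by 2.45 in MS− (limma adjusted p = 0.00277; kept in every alternative) and by 1.06 in MS+ (adjusted p = 0.0302; lost without any 1 FBS or MS+ library), both against FBS. MS+ was 1.40 above MS− with the block (adjusted p = 0.000528; 0.103 without it). Layn, layilin, was lower in MS+ than in FBS (-0.65, limma adjusted p = 0.0265) and Tlr4, the endotoxin receptor that also responds to hyaluronan fragments, was higher in MS− than in FBS (0.61, adjusted p = 0.0210), both with the block. Among 4 tested matrix partners, Acan, the cartilage proteoglycan aggrecan, read 2585 and 3012 CPM in FBS, 1452 and 1827 CPM in MS−, and 2671 and 2538 CPM in MS+. It fell in MS− (log2 difference from FBS -0.78, limma adjusted p = 0.0409; lost without any single library of the 6), and MS+ was 0.68 above MS− with the block (adjusted p = 0.000693; 0.147 without it). The link protein gene Hapln3 (0.71, adjusted p = 0.0396) was higher in MS+ than in FBS by limma with the block. For Hapln4, another link protein gene, the log2 difference of MS+ from FBS was 1.11. Hapln3 read 2.78 to 8.44 CPM. Hapln4 read 0.327 and 0.995 CPM in FBS (2 and 6 reads) and 3.96 and 1.47 CPM in MS+ (22 and 8 reads). Hapln4 passed the filter only through its levels in MS− and MS+, so its test against FBS was not independent of the filter. Its levels are therefore given as a description, although its call is among the higher ones counted above for MS+ with the block. The rise of Hapln4 from FBS to MS+ was larger in rat 1.

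Of the CD55 partners and complement regulators, 3 were tested, and none passed the adjusted p without the block. Without it, 9.61% of all rows passed in MS+ against FBS, 4.81% in MS− against FBS and 0.0204% in MS+ against MS−. With the block, 28.2%, 20.5% and 10.1% of all rows did. Adgre5, listed as Cd97, encodes a receptor of CD55; it read 17.8 to 24.4 CPM and did not pass in any comparison. Cd59, which blocks the membrane attack complex, was higher with the block in MS+ (0.34, limma adjusted p = 0.0190) and in MS− (0.46, adjusted p = 0.00402) than in FBS. Serping1, the C1 inhibitor, was higher in MS+ than in FBS (0.34, adjusted p = 0.0466) and than in MS− (0.41, adjusted p = 0.0438), again by limma with the block. These differences were smaller than that of Cd55 in each comparison with FBS, and the difference between genes was not tested.

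Of the other lining fibroblast genes, 7 of 15 were tested. No gene of this list passed as higher than FBS without the block, where 4.95% of all rows did in MS+ and 2.09% in MS−. Calls with the block covered 28.2% of all rows in MS+ against FBS, 20.5% in MS− against FBS and 10.1% in MS+ against MS−. Pdpn, podoplanin, a glycoprotein of lining fibroblasts, read 40.9 and 42.4 CPM in FBS, 21.2 and 22.2 CPM in MS−, and 18.6 and 16.5 CPM in MS+. Both rat sera lay below FBS without overlap. Pdpn fell by 1.21 in MS+ (limma adjusted p = 0.00555; 0.0509 without MS+ rat 1) and by 0.91 in MS− (adjusted p = 0.0139; lost without any 1 FBS or MS− library), both against FBS. Fap, fibroblast activation protein, was higher in MS+ than in FBS with the block (0.92, limma adjusted p = 0.0149). Cdh11, the cadherin that joins lining cells, was higher in MS+ than in FBS (0.24, adjusted p = 0.0446) and than in MS− (0.38, adjusted p = 0.0103), by limma with the block. Foxo3, a forkhead transcription factor, was lower in MS+ than in MS− (-0.64, limma adjusted p = 0.0331 with the block). Over the 7, the median log2 difference from FBS was -0.11 in MS+ and 0.059 in MS−.

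Of 9 sublining fibroblast genes, 7 were tested. With the block 1 was called higher and 3 lower in MS+ than in FBS (14.4% and 13.9% of all rows), and 1 higher and 4 lower in MS− (10.8% and 9.63%). Cxcl12, a chemokine, read 24.6 and 37.5 CPM in FBS, 8.23 and 13.0 CPM in MS−, and 9.19 and 13.4 CPM in MS+. It fell by 1.37 in MS+ (limma adjusted p = 0.0369) and by 1.46 in MS− (adjusted p = 0.0444) against FBS, and these calls were lost without any 1 FBS or MS+ library and without any single library of the 6, with adjusted p-values of up to 0.181 and 0.203 over the alternatives. With the block, Cd248, endosialin, was lower in both rat sera (-0.67 in MS+ and -0.59 in MS−, limma adjusted p = 8.17e-05 and 0.000355). Notch3, a receptor of perivascular fibroblasts, was lower with the block too (-0.83 and -0.45, adjusted p = 0.000769 and 0.0489). Its levels were 73.2 and 116 CPM in FBS, 40.2 and 112 CPM in MS−, and 30.6 and 85.7 CPM in MS+. The fall of Notch3 in MS− was thus mostly in rat 1. Thy1, or CD90, the marker of sublining fibroblasts, was lower in MS− (-0.37, adjusted p = 0.00557), and Dkk3 was higher in both MS+ (0.28, adjusted p = 0.0173) and MS− (0.30, adjusted p = 0.0169), all against FBS in limma with the block. Medians over the 7 were -0.50 in MS+ and -0.37 in MS− against FBS.

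**Figure D3:**
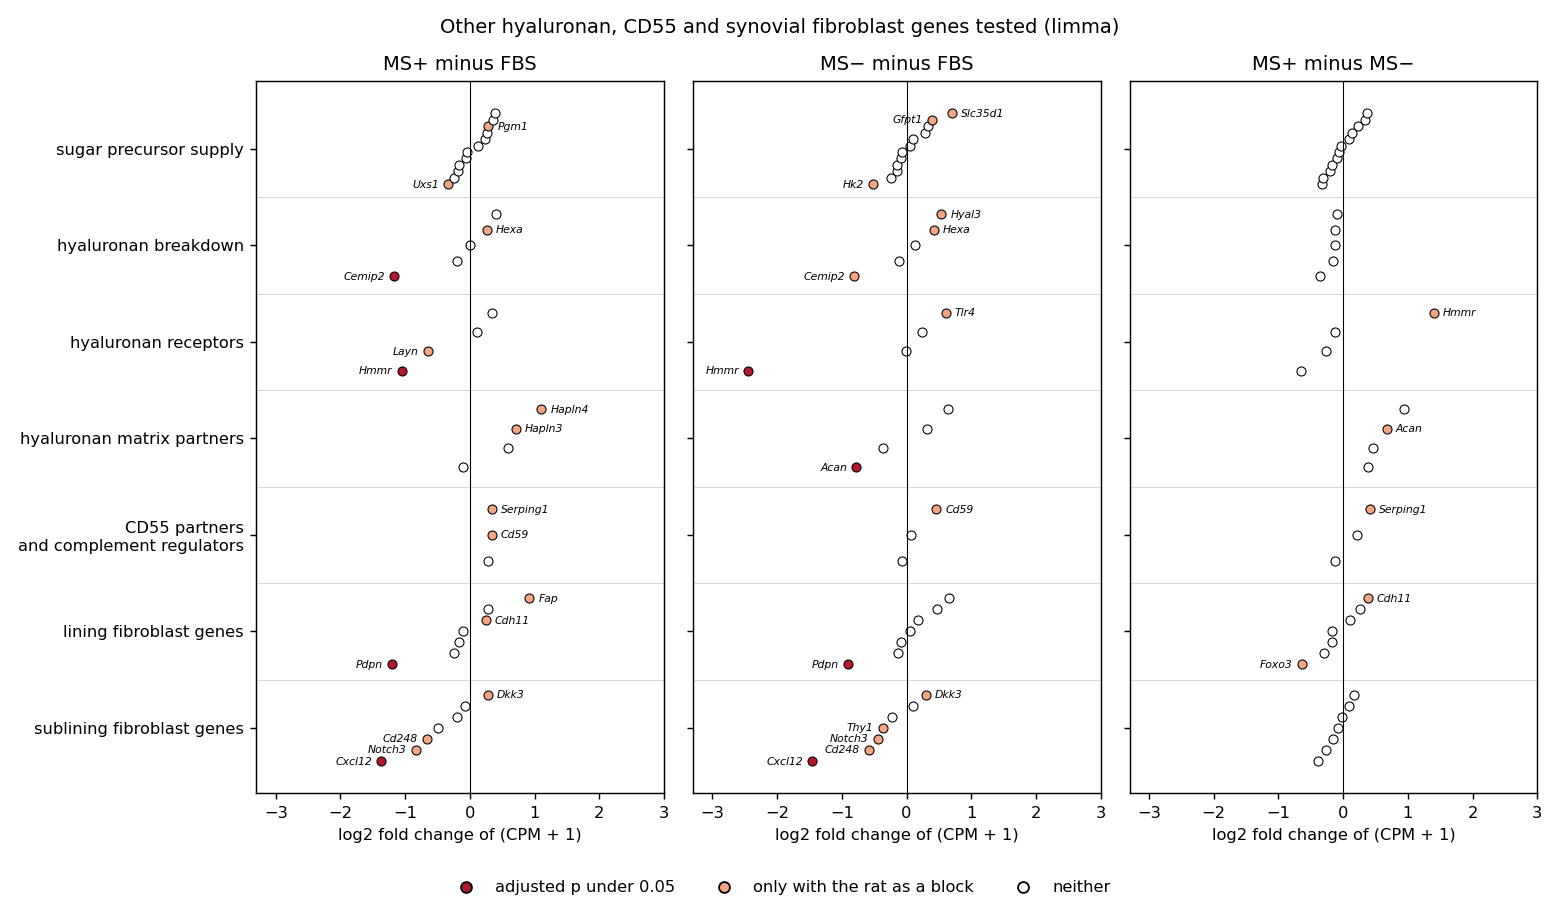
Log2 fold change of (CPM + 1) for the 42 tested genes of the 7 other lists (rows of points, ordered by value within a list) in the 3 comparisons (panels). Dark points passed a limma adjusted p under 0.05, light orange points only with the rat as a block; Hmmr in MS− minus FBS lay lowest at -2.45 and Hmmr in MS+ minus MS− highest at 1.40.

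For the 4 genes with the widest range of group means, the 3 rows with the most similar levels were sought among the other 9819 tested rows. Likeness was the root mean square difference of centred log2(CPM + 1) over the 6 libraries, where a smaller value is closer. For Cd55, whose group means spanned 2.30 log2 units, these were Per1 (0.181), Slc19a2 (0.202) and Fam126a (0.237). Hyal1, which spanned 0.91, was closest to Acad11 (0.0965), Ttc14 (0.0978) and Herc3 (0.0988). Has2, which spanned 0.90, was closest to Chek2 (0.103), Nt5dc2 (0.126) and Myzap (0.133). Hyal2, which spanned 0.62, was closest to Runx1t1 (0.0216), Cacybp (0.0461) and Vamp2 (0.0472). These are descriptions over 6 libraries of 2 rats that share their scaling, with no test.

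**Figure D4:**
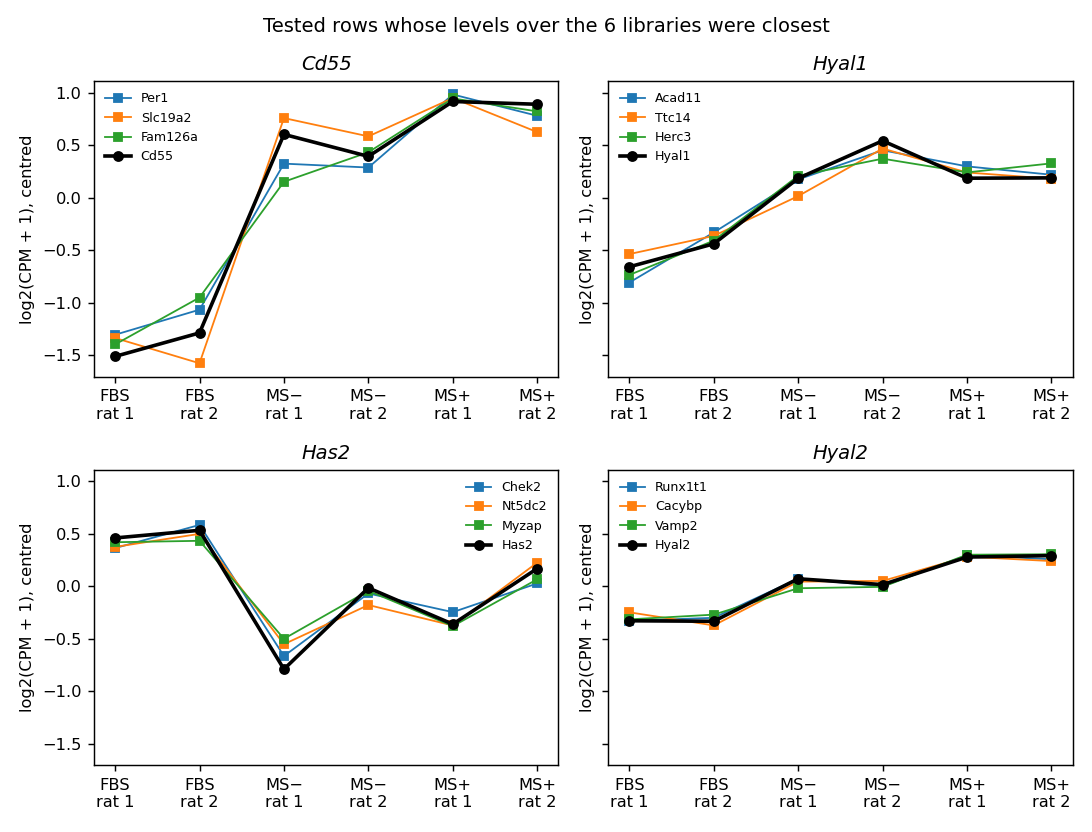
Centred log2(CPM + 1) in the 6 libraries (horizontal axis, rat 1 and rat 2 in each serum) of Cd55, Hyal1, Has2 and Hyal2 (black) and of the 3 tested rows closest to each (coloured squares). The black Cd55 line is low in both FBS libraries and high in both MS+ libraries. Neighbours lie 0.181 to 0.237 log2 units from Cd55 and 0.0216 to 0.0472 from Hyal2. These distances are not scaled to the range of group means, which is 2.30 for Cd55 and 0.62 for Hyal2.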

How the data were processed

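Poly(A) RNA of the 6 cultures was sequenced on an Illumina instrument. Per the submitters' processing notes and the study's methods, the authors aligned reads to rn4 with Bowtie2 2.1.0, counted them per transcript with HTSeq 0.5.4p3 (intersection-nonempty mode) and scaled them with the TMM method of edgeR. The authors deposited this normalized signal, in CPM. Reads shared by overlapping transcripts are dropped by that mode, and strand use was not given in the sources used here. Where a list gene had several rows, as Cxcl12 with 3 and Cd59 with 2, only the most abundant row was used. Dividing by the value of 1 read gave whole reads for 100% of values in each library (tolerance 1e-06 reads). Coordinates are rn4 as deposited, 1-based, and promoters are RefSeq on GRCr8. Accessions of 15958 rows (92.7%) matched the RefSeq gene table.

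Rows with at least 1 CPM in both libraries of at least 1 serum (9820) were tested by limma 3.58.1 in R 4.3.3 (lmFit, eBayes with trend, two-sided) on log2(CPM + 1), with serum as the only term and Benjamini-Hochberg adjustment over all 9820 rows. Fold changes on this scale understate changes of low genes. The study applied its rule to limma-voom output, so counts under it here are not the same measure. The labels name the same rat for each replicate number, so numbers pair the libraries; the rat 2 minus rat 1 differences correlated across rows by 0.590 (MS+ and MS−), 0.494 (MS+ and FBS) and 0.616 (MS− and FBS). The blocked fit is given beside results whose call it changes. Chi-square per degree of freedom between libraries of a serum was 13.6 to 15.1, so none were copies. Alternatives were edgeR 4.0.16, DESeq2 1.42.0 and limma-voom on the whole reads, other scalings, pseudocounts and filters, and each library left out. Scripts were tested on simulated data.

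Members and lists were chosen with earlier results of these data known. All 10 members were named, and list genes past adjusted p under 0.05 with or without the block or past the study rule, up to 4 per list and comparison by size of change. A pair of list genes is not reported here and was left out of the list counts and medians. Intervals and floors cover counting error only.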

Additional observations from a re-analysis of the deposited data

How the results depend on the processing

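The signs and calls of Cd55 against FBS were the same under every alternative. In MS+ against MS−, edgeR with the replicate block called 1 of the 8 genes (Cd55) where limma called 0. In MS− against FBS, 4 passed with the replicate block and 4 in edgeR with it, and 1 passed with no filter on low values, where the count was 2; the extra calls under the block were Has2 and Hyal2. Limma with the block added Has2 in MS+ against FBS, and it changed no other call of the 8 genes. Over the 42 list genes the block moved the calls in MS+ against FBS from 0 higher and 4 lower to 9 and 8, in MS− against FBS from 0 and 4 to 7 and 9, and in MS+ against MS− from 0 to 4 and 1; over all rows the calls went from 9.61% to 28.2%, from 4.81% to 20.5% and from 0.0204% to 10.1%. Leaving out 1 library at a time gave 1 to 2 genes in MS+ against FBS (3 with all libraries; 1 without any FBS or MS+ library), 1 in MS− against FBS, and 1 to 2 under the study rule in MS− against FBS (1 with all; 2 without FBS rat 2 or either MS− library). With the lone library of a serum, limma assumes that it varies like the others.

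Some log2 differences that passed no test turned sign. With library totals, MS+ minus FBS was -0.045 for Cd44 and -0.039 for Ugdh, and MS− minus FBS was -0.0086 for Ugdh; Cd44 in MS+ minus FBS was also -0.00026 with DESeq2 size factors, -0.00012 in edgeR with the replicate block and -0.0017 in limma-voom. Leaving out 1 library, MS+ minus MS− ran from -0.38 to 0.11 for Prg4, -0.081 to 0.69 for Has2, -0.31 to 0.12 for Cd44, -0.35 to 0.0029 for Hyal1 and -0.097 to 0.072 for Ugdh. MS+ minus FBS ran from -0.21 to 0.21 for Cd44 and -0.056 to 0.075 for Ugdh, and MS− minus FBS from -0.010 to 0.45 for Has1, -0.037 to 0.23 for Cd44 and -0.062 to 0.11 for Ugdh. The causes were not tested. With all libraries, 222 of the single-gene values kept direction and call, 7 gained the threshold and 5 lost it. The 222 include Prg4 and Has1 in MS+ against MS− by DESeq2, which gave them no adjusted p, so only their direction was compared. With 1 library left out, 114 kept both and 16 lost the threshold. With library totals the median over all rows in MS+ minus FBS was -0.045, beside 0.00078 in the fit reported. Depth limits Has1, Has3 and Prg4, and 2 rats per serum limit every test.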
